A study of Homo sapiens with 20 samples.

Results

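RRAD, AIF1L, GDPD3 and ELL2 are 4 genes that were picked because their read counts were far higher in GCN2KO than in WT keratinocytes. They were chosen by the read counts of the GCN2KO against the WT libraries. They are 4 of the 57500 genes listed for each library, found by Ensembl ID and symbol, and all 4 were present in each of the 20 libraries and passed the filter on low counts in every comparison. The genotype difference chose them, so its size is given as a description with no test. The response of the 4 genes to wounding, and the difference of that response between the genotypes, is what was tested.

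NTERT cells are human keratinocytes immortalised with hTERT. WT cells carry the wild-type genotype, and where the study shows the knockout it describes WT cells as given a control guide RNA. GCN2KO cells are a pool, not a clone, in which CRISPR/Cas9 guides had cut EIF2AK4, the gene of the eIF2 kinase GCN2. Separate pools were made with guides for different exons, and which was sequenced is not stated. According to the methods of the study, monolayers of both genotypes were differentiated with calcium and serum and then left unwounded or subjected to high-density wounding (HDW), in which rows of pipet tips are drawn across the well in perpendicular directions. Unwounded and HDW cells of the WT and of the GCN2KO genotype therefore make 4 groups, with 5 libraries each, and the HDW cells were taken 6 h after wounding. The labels do not say whether the libraries of a group came from separate cell batches, so p-values measure the spread between these libraries, which may be technical. No more than 1 line of each genotype is described for these libraries. The lack of GCN2 and any other difference between the WT cells and the edited pool therefore cannot be told apart.

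GCN2 phosphorylates the translation initiation factor eIF2 when uncharged tRNAs accumulate, which lowers bulk protein synthesis while some mRNAs are translated more. The 4 genes have no common function. RRAD encodes a small GTPase of the RGK family, which binds the beta subunits of voltage-gated calcium channels and is a known p53 target. AIF1L encodes a calcium-binding EF-hand protein related to AIF1 that binds and bundles actin, GDPD3 encodes a membrane lysophospholipase D that can form lysophosphatidic acid, and ELL2 encodes an elongation factor of RNA polymerase II that acts in the super elongation complex.

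On GRCh38, RRAD lies on the minus strand of chromosome 16 at 66921685 to 66925535 and GDPD3 on the minus strand of the same chromosome at 30104810 to 30113537. AIF1L lies on the plus strand of chromosome 9 at 131096476 to 131123152. ELL2 lies on the minus strand of chromosome 5 at 95885098 to 95961851. All 4 are protein-coding genes, and the counts are of reads on their exons. The exons of RRAD, AIF1L and ELL2 share no base with those of another annotated gene, whereas 24.8% of the exonic bases of GDPD3 are shared with 3 long noncoding RNAs on the opposite strand. Whether the counting used strand was not given in the sources used here, so reads from GDPD3 and these RNAs cannot be told apart in the shared bases.

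The libraries held 14083504 to 34611570 counts on genes, with the lowest median, 23685751, in WT unwounded cells. Values below are normalized read counts, which are counts scaled to a common effective library size. EIF2AK4, the targeted gene, had 3980.2 to 4555 normalized read counts in the 10 WT libraries and 806 to 962 in the 10 GCN2KO libraries, so no library went against its label. All 6 basal keratinocyte markers were expressed in every group, but 5 of them were lower and 1, KRT5, higher in the GCN2KO genotype, both unwounded and after HDW, with medians of -0.79 and -0.67 on the log2 scale. The summed level of 10 differentiation markers, per kb of exon, ranged from 3004 to 3859 before and from 3154 to 4260.2 after HDW in WT cells, and from 6116 to 8923 before and from 7731 to 10924 after HDW in GCN2KO cells. Like the 4 genes, this sum was higher in all GCN2KO libraries, but the list did not move as one. Of the 8 differentiation markers tested, 5 were higher and 1, KRT1, was lower in GCN2KO than in WT unwounded cells, and TGM1 and KRT10 did not pass. After HDW 6 were higher and 2, KRT1 and TGM1, lower. Of all genes tested, 33.4% were higher and 33.1% lower in unwounded GCN2KO cells, and 35.9% and 35.8% after HDW, at an adjusted p of at most 0.05. IVL, the gene of involucrin, had a mean of 11072 normalized read counts in GCN2KO unwounded and 3126 in WT unwounded cells. The summed level of 6 melanocyte markers was also higher in all GCN2KO libraries, at 63.2 to 103 against 27.4 to 38.7 in WT libraries. Of its 3 genes tested in unwounded cells MITF was higher by 1.98 on the log2 scale (edgeR adjusted p = 3.94e-08), and PMEL and MLANA were detected and did not pass. After HDW MITF was higher by 1.94 (edgeR adjusted p = 1.18e-07) and MLANA by 0.79 (edgeR adjusted p = 0.0021), and PMEL did not pass. TYR, another melanocyte marker, was at 0 counts in every library. The summed levels of 6 basal markers, at 109502 to 131184 in WT and 98112 to 132876 in GCN2KO libraries, overlapped between the genotypes. Those of 7 fibroblast markers, at 72.6 to 115 over all libraries, overlapped between the genotypes after HDW. In unwounded cells the fibroblast sums did not overlap, at 100.5 to 115 in WT and 72.6 to 97.7 in GCN2KO libraries. The sums of 6 leukocyte markers were 539 to 1134 in WT and 282 to 775 in GCN2KO libraries, and overlapped after HDW. In unwounded cells the leukocyte sums did not overlap, at 983 to 1134 in WT and 417 to 775 in GCN2KO libraries. Among the leukocyte markers PTPRC was at 0 counts in 3 of the 4 groups, whereas CD14 had a mean of 1683 normalized read counts in WT unwounded cells. The part of these cell types in the levels of the 4 genes was not tested.

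RRAD, the RGK GTPase, had 262, 255, 170.3, 270.4 and 232 normalized read counts in WT unwounded cells. In WT HDW cells it had 166, 239, 197, 171 and 207. The ranges overlapped, with 1 of the 5 HDW libraries below all unwounded ones. In GCN2KO unwounded cells RRAD had 2594, 2687, 2956, 2984 and 2674 normalized read counts. In GCN2KO HDW cells it had 3133, 3036, 3156, 2647 and 2435. These groups overlapped as well, and the lowest GCN2KO library had 9.01 times the value of the highest WT library. The group means were 238 ± 40.5 (SD, n = 5) before and 196 ± 29.4 after HDW in WT cells, and 2779 ± 178 before and 2881 ± 323 after HDW in GCN2KO cells. GCN2KO against WT gave a log2 fold change of 3.56 (SE 0.11), or 11.8-fold, in unwounded cells and 3.88 (SE 0.10), or 14.7-fold, after HDW.

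AIF1L, the actin-bundling protein, had 25.8, 28.6, 37.4, 34.4 and 36.6 normalized read counts in WT unwounded cells. In WT HDW cells it had 89.4, 73.2, 91.1, 103 and 96.0. All 5 wounded libraries lay above all 5 unwounded ones, although the unwounded values rest on only 13 to 38 raw counts. In GCN2KO unwounded cells AIF1L had 417, 449, 439, 432 and 406 normalized read counts. In GCN2KO HDW cells it had 319, 407, 346, 395 and 367. Of the 5 wounded GCN2KO libraries, 4 lay below all unwounded ones. The means were 32.6 ± 5.12 (SD, n = 5) before and 90.5 ± 11.0 after HDW in WT cells, and 429 ± 17.2 before and 367 ± 35.4 after HDW in GCN2KO cells. WT HDW cells thus had 21.1% of the GCN2KO unwounded mean, against 7.59% in WT unwounded cells. GCN2KO against WT gave 3.68 on the log2 scale (SE 0.11), or 12.8-fold, without wounding and 2.02 (SE 0.096), or 4.05-fold, after HDW.

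GDPD3, the lysophospholipase D, had 91.4, 66.0, 91.8, 86.4 and 90.6 normalized read counts in WT unwounded cells, from 37 to 94 raw counts. In WT HDW cells it had 86.0, 108, 85.2, 76.8 and 96.9. The ranges overlapped, and replicate 2 was the lowest unwounded library and the highest wounded one. In GCN2KO unwounded cells GDPD3 had 969, 901, 993, 789 and 1022 normalized read counts. In GCN2KO HDW cells it had 686, 706, 650.0, 756 and 831. Here 4 of the 5 wounded libraries lay below all unwounded ones. The means were 85.2 ± 11.0 (SD, n = 5) before and 90.5 ± 12 after HDW in WT cells, and 935 ± 92.9 before and 726 ± 70.3 after HDW in GCN2KO cells. GCN2KO against WT gave a log2 fold change of 3.45 (SE 0.10), or 10.9-fold, in unwounded cells and 2.99 (SE 0.094), or 7.97-fold, after HDW. The 3 long noncoding RNAs that share exonic bases with GDPD3 had means of 7.69, 0.67 and 1.24 in WT unwounded cells. In GCN2KO unwounded cells their means were 10.3, 0.68 and 3.88. The part of these RNAs in the GDPD3 level was not tested.

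ELL2, the elongation factor, had 2051, 2163, 2224, 2159 and 2119.6 normalized read counts in WT unwounded cells. In WT HDW cells it had 2700.2, 2732, 2767, 2804 and 2754. The 5 wounded WT libraries spanned a narrow range that lay wholly above the unwounded one. In GCN2KO unwounded cells ELL2 had 7349, 7937, 8515, 8034 and 7956 normalized read counts. In GCN2KO HDW cells it had 8355, 7782, 7969, 8115 and 6946. The wounded and unwounded GCN2KO libraries overlapped. The means were 2143 ± 63.9 (SD, n = 5) before and 2751 ± 38.7 after HDW in WT cells, and 7958 ± 415 before and 7833 ± 538 after HDW in GCN2KO cells. WT HDW cells had 34.6% of the GCN2KO unwounded mean of ELL2, against 26.9% in WT unwounded cells. GCN2KO against WT gave a log2 fold change of 1.90 (SE 0.060), or 3.72-fold, in unwounded cells and 1.51 (SE 0.048), or 2.85-fold, after HDW.

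**Figure D1:**
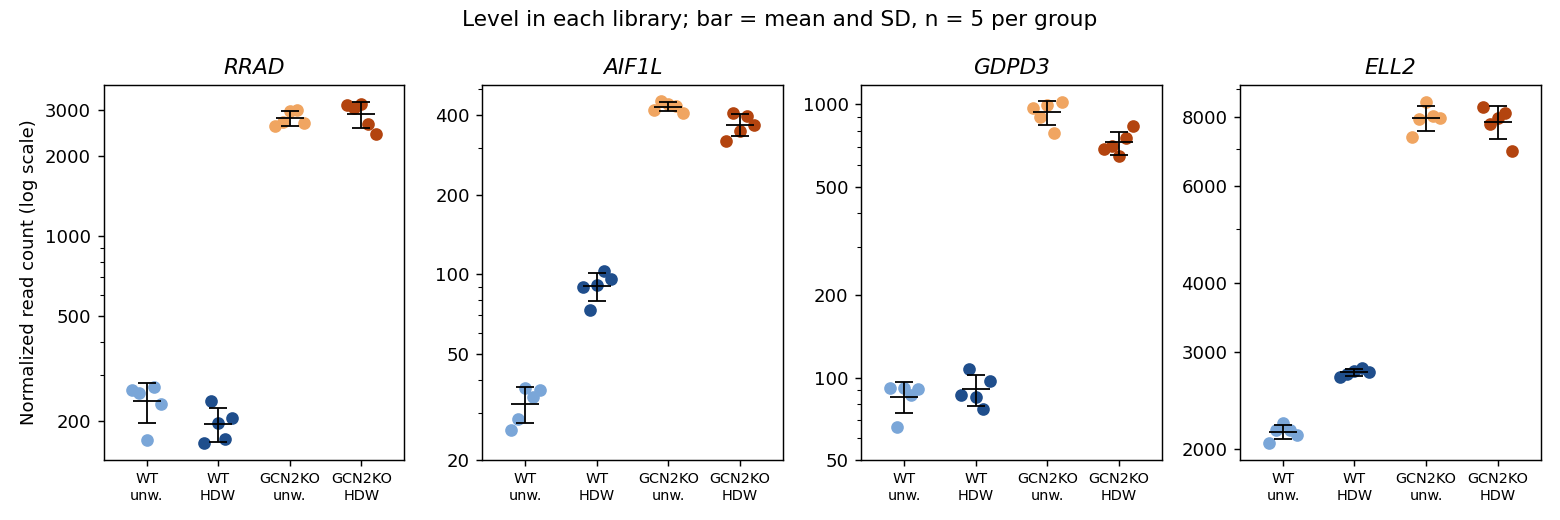
Normalized read counts of the 4 genes (log scale, a separate axis for each gene) in the 5 libraries of each group, with the mean and SD as bars. All 10 GCN2KO libraries lie above all 10 WT libraries for each gene, and AIF1L and ELL2 are higher in all 5 WT HDW than in all 5 WT unwounded libraries. The genotype contrast chose the genes, and the share of all genes that separate in these ways was not counted.

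For each of the 4 genes every GCN2KO library lay above every WT library, wounded or not. All 4 had a log2 fold change over 1 between the genotypes, and of all genes tested 8.21% were called higher at an adjusted p of at most 0.05 and a doubling or more (log2 fold change of 1) in unwounded cells and 7.1% after HDW. Since this contrast chose the genes, nothing is read from their count or from the separation of their libraries. The share of all genes whose libraries separate in this way was not counted. By size of the log2 fold change in unwounded cells, AIF1L took rank 57, RRAD 63, GDPD3 72 and ELL2 363 of 15348 genes. After HDW the ranks were 37 for RRAD, 84 for GDPD3, 241 for AIF1L and 490.0 for ELL2 of 15855 genes. In bulk RNA a change in the share of cells that express a gene and a change in its RNA per cell cannot be told apart.

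Levels per kb of exon allow the 4 genes to be compared with each other. In WT unwounded cells ELL2 had the highest level, with 302 ± 8.99 (SD, n = 5) normalized read counts per kb. RRAD followed with 150.2 ± 25.5, GDPD3 with 54.2 ± 6.97 and AIF1L with 6.15 ± 0.967. In GCN2KO unwounded cells RRAD stood first, with 1753 ± 112 normalized read counts per kb, above ELL2 with 1119.6 ± 58.3. GDPD3 had 595 ± 59.1 and AIF1L 80.9 ± 3.25. The per-kb level of AIF1L was at percentile 13.5 of the expressed genes in WT unwounded and at percentile 49.7 in GCN2KO unwounded cells, while RRAD moved from percentile 61.9 to 96.0.

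The effect of HDW was tested first in WT cells. AIF1L and ELL2 rose, which are 2 of the 4 genes, while 26.1% of the 15348 genes tested were higher and 25.2% lower after HDW at an adjusted p of at most 0.05. AIF1L rose by 1.43 on the log2 scale (SE 0.14), or 2.69-fold, with an edgeR adjusted p of 6.08e-07. It was the only one of the 4 past a log2 fold change of 1, a size that 2.62% of the genes tested reached upward with an adjusted p of at most 0.05. ELL2 rose less, by 0.36 (SE 0.030), or 1.28-fold, with an edgeR adjusted p of 1.35e-07. GDPD3 had a log2 fold change of 0.08 (SE 0.12, 95% confidence interval -0.18 to 0.33, edgeR adjusted p = 0.628), within the spread between libraries. RRAD had a log2 fold change of -0.27 (SE 0.13, 95% confidence interval -0.54 to -0.0056), and its edgeR adjusted p of 0.0823 did not pass. The call for RRAD depended on single libraries, since without WT unwounded replicate 3 the log2 fold change was -0.38 (edgeR adjusted p = 0.00881) and without WT HDW replicate 2 it was -0.36 (edgeR adjusted p = 0.0190). With all libraries thinned to the smallest total it was -0.12 (edgeR adjusted p = 0.555).

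In GCN2KO cells GDPD3 was the only one of the 4 genes that passed the test for HDW, and it fell. Of the 15791 genes tested there, 11.9% were higher and 10.8% lower, beside 1 of the 4 genes here. The log2 fold change of GDPD3 was -0.36 (SE 0.087), or 0.781-fold, with an edgeR adjusted p of 0.0119. AIF1L had a log2 fold change of -0.22 (SE 0.080, 95% confidence interval -0.39 to -0.04) and an edgeR adjusted p of 0.0650. DESeq2, with a log2 fold change of -0.23 and an adjusted p of 0.0397, called AIF1L lower. RRAD had a log2 fold change of 0.06 (SE 0.080, 95% confidence interval -0.11 to 0.23, edgeR adjusted p = 0.594). ELL2 had a log2 fold change of -0.01 (SE 0.066, 95% confidence interval -0.15 to 0.13, edgeR adjusted p = 0.910), and these intervals hold changes of either sign.

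The difference between the responses was tested as the interaction of genotype and HDW over all 20 libraries. It was negative and passed for AIF1L, GDPD3 and ELL2, 3 of the 4 genes, where 12.5% of the 16536 genes tested had a lower and 11.2% a higher response in GCN2KO than in WT cells. For AIF1L the GCN2KO response minus the WT response was -1.65 in log2 units, with an SE of 0.15 and an edgeR adjusted p of 3.94e-08, a size of at least 1 that 2.15% of the genes tested reached in this direction. For ELL2 the difference was -0.38 (SE 0.072, edgeR adjusted p = 0.000418). For GDPD3 it was -0.445 (SE 0.15, edgeR adjusted p = 0.0287). RRAD had a difference of 0.32 (SE 0.15, 95% confidence interval 0.02 to 0.63) that did not pass, with an edgeR adjusted p of 0.117. It passed without WT unwounded replicate 3 (0.43, edgeR adjusted p = 0.0253) and without WT HDW replicate 2 (0.41, edgeR adjusted p = 0.0477), and was 0.13 (edgeR adjusted p = 0.625) with libraries thinned to the smallest total. The call for GDPD3 was lost without any 1 of 5 libraries, which were WT unwounded replicate 2, WT HDW replicates 2 and 5, GCN2KO unwounded replicate 5 and GCN2KO HDW replicate 3, with adjusted p-values up to 0.0686. The interaction uses the libraries on which the genes were picked, and picking genes for a high ratio of GCN2KO to WT in unwounded cells would by itself lower it. Such a pick would also raise the change after HDW in WT cells and lower that in GCN2KO cells. These effects of the pick were not tested here.

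**Figure D2:**
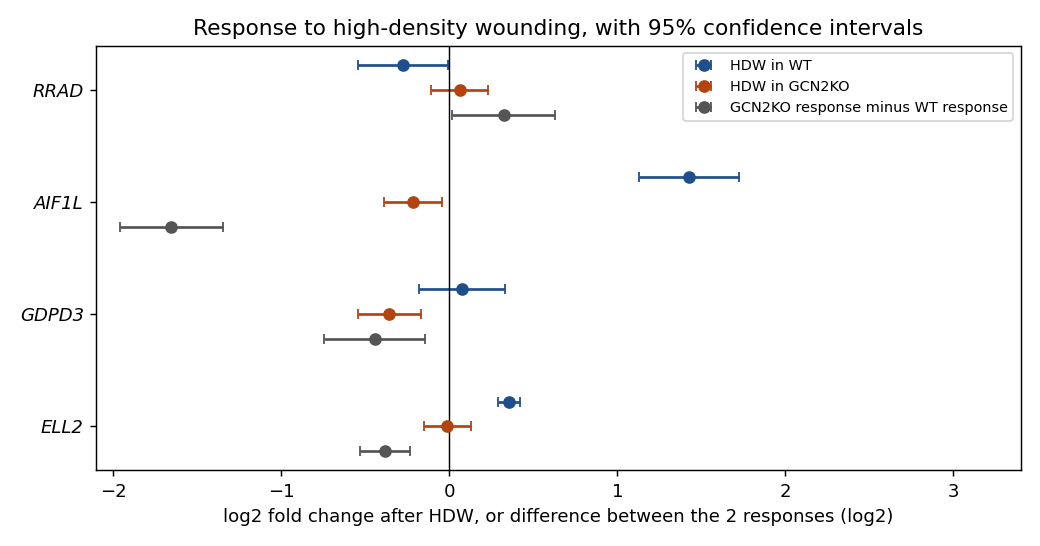
The log2 fold change after HDW in WT and in GCN2KO cells, and the difference between both responses, for each of the 4 genes, with points for the edgeR estimates and bars for 95% confidence intervals. The AIF1L response is 1.43 in WT and -0.22 in GCN2KO cells, the widest difference of the 4 genes.

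**Figure D3:**
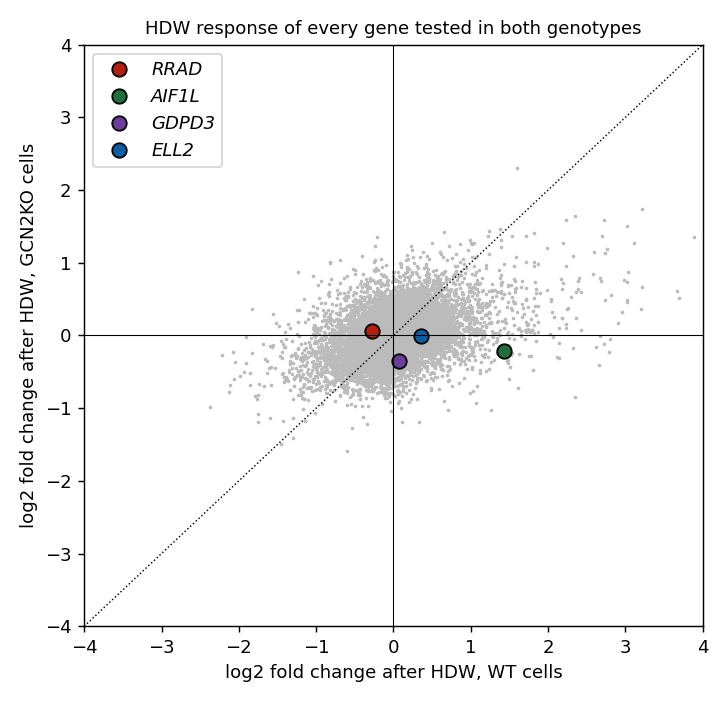
The log2 fold change after HDW in WT cells (horizontal axis) against that in GCN2KO cells (vertical axis) for the genes tested in both genotypes, in grey, with the 4 genes in colour and a dotted line where both are equal. Of 14899 genes, 2 lie outside the plotted range, and AIF1L lies to the right, at 1.43 in WT and -0.22 in GCN2KO cells.

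The 4 genes thus differed in the order of their groups. AIF1L and ELL2 had their lowest level in WT unwounded cells, a higher level in WT HDW cells that did not overlap it, and their highest levels in both GCN2KO groups, which overlapped each other. RRAD and GDPD3 had WT groups that overlapped each other, far below both GCN2KO groups. GDPD3 and AIF1L both had a higher mean in GCN2KO unwounded than in GCN2KO HDW cells. For each of these genes 4 HDW libraries lay below all unwounded ones, and the groups overlapped through 1 HDW library. The fall passed in edgeR for GDPD3 and not for AIF1L. How many of all genes have groups in such orders was not counted.

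In the lists that follow, a gene is counted as higher or lower, or as having risen or fallen, only at an adjusted p of at most 0.05. After HDW, 26.1% of all genes tested rose and 25.2% fell in WT cells, and 11.9% rose and 10.8% fell in GCN2KO cells. Between the genotypes, 33.4% were higher and 33.1% lower in unwounded GCN2KO cells, and 35.9% and 35.8% after HDW. The interaction passed upward for 11.2% and downward for 12.5%. For RRAD, the relatives are the other RGK GTPases, GEM, REM1 and REM2, and the calcium channel beta subunits CACNB1 to CACNB4, 7 genes of which 3 could be tested for HDW. CACNB1 rose in WT HDW cells by a log2 fold change of 0.59 (edgeR adjusted p = 0.00029), and no gene of this list passed in GCN2KO cells. With 3 genes tested, the median log2 fold change after HDW was that of CACNB1 itself, 0.59 in WT and 0.14 in GCN2KO cells. Over all genes tested the medians were -0.0024 and -0.00097. CACNB3 had a log2 fold change of -0.08 in WT (edgeR adjusted p = 0.105) and -0.26 in GCN2KO cells (edgeR adjusted p = 0.106). CACNB1 was also the 1 gene of 4 tested with an interaction, at -0.47 (edgeR adjusted p = 0.0193). In GCN2KO against WT unwounded cells CACNB1 was higher by 0.63 on the log2 scale (edgeR adjusted p = 0.000244) and CACNB3 lower by 0.50 (edgeR adjusted p = 5.4e-05). GEM, another RGK GTPase, had low means, of 6.87 normalized read counts before and 10.5 after HDW in WT cells. In GCN2KO cells its means were 11.2 before and 14.8 after HDW, and it passed in no comparison.

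Of 20 other p53 targets, 5 rose and 11 fell in WT HDW cells (median log2 fold change -0.21), and 3 rose and 4 fell in GCN2KO HDW cells (median -0.03). Between the genotypes 8 were higher and 6 lower in unwounded GCN2KO cells, with a median of 0.01, and 10 were higher and 5 lower after HDW, with a median of 0.12. All genes tested had a median of 0.0042 and 0.0020 in these contrasts, and 33.4% were higher and 33.1% lower in unwounded cells. GDF15, a secreted stress cytokine, was higher by 2.18 on the log2 scale in unwounded GCN2KO cells (edgeR adjusted p = 7.24e-10), and TP53I3, an oxidoreductase, was lower by 1.46 (edgeR adjusted p = 5.68e-10). Like AIF1L, GDF15 rose after HDW in WT cells (0.79, edgeR adjusted p = 0.00659) and had a negative interaction of -0.98 (edgeR adjusted p = 0.00877). SESN2 did the same, with 0.74 in WT HDW cells (edgeR adjusted p = 6.4e-06) and an interaction of -0.65 (edgeR adjusted p = 0.00022). The interaction passed for 4 targets upward and 2 downward, with a median of 0.14. The smallest adjusted p was that of ZMAT3, which went upward with 0.69 (edgeR adjusted p = 2.06e-05).

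For AIF1L, the list of AIF1 and actin bundlers held 8 other genes, of which 7 were tested. After HDW 5 of them rose in WT and 4 in GCN2KO cells, none fell, and the medians were 0.25 and 0.22. LCP1, a plastin that bundles actin filaments, rose by 0.70 on the log2 scale in WT (edgeR adjusted p = 4.59e-10) and by 0.43 in GCN2KO cells (edgeR adjusted p = 0.000595). EPS8, which caps and bundles actin, rose by 0.37 in WT cells (edgeR adjusted p = 2.49e-06) and had a log2 fold change of -0.06 in GCN2KO cells (edgeR adjusted p = 0.582). The interaction passed for 2 of the 7, LCP1 and EPS8, both downward, with a median of 0.04 over the list. The genotypes differed for 5 of the 7 in unwounded cells, 2 higher and 3 lower in GCN2KO, with EPS8 higher by 0.74 (edgeR adjusted p = 3.52e-07) and ACTN4, an actin-crosslinking actinin, lower with a log2 fold change of -0.51 (edgeR adjusted p = 3.53e-05). After HDW the counts were again 2 higher and 3 lower.

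For GDPD3, 6 of 9 other glycerophosphodiester phosphodiesterases and makers of lysophosphatidic acid or N-acylethanolamines were tested. After HDW 2 rose and 3 fell in WT cells, where the median was -0.10, and 1 fell and none rose in GCN2KO cells, with a median of -0.14. The one that fell in GCN2KO cells, as GDPD3 did, was GDE1 (-0.19, edgeR adjusted p = 0.0399). In unwounded cells 4 were higher and 2 lower in GCN2KO than in WT, with a median of 0.54. After HDW 3 were higher and 1 lower, with a median of 0.16. GDPD5, which cleaves glycerophosphocholine, was higher by 1.02 (edgeR adjusted p = 1.68e-07) in unwounded GCN2KO cells, and NAPEPLD, which releases N-acylethanolamines, was lower by 0.70 (edgeR adjusted p = 1.18e-06). The interaction passed for 4 of the 6, 2 downward and 2 upward, with a median of -0.01. GPCPD1, another glycerophosphocholine phosphodiesterase, had one of -0.66 (edgeR adjusted p = 0.000539) and GDPD5 one of 0.46 (edgeR adjusted p = 0.0268).

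For ELL2, 13 of 15 other genes of the ELL family, the super elongation complex and P-TEFb control were tested. After HDW 1 rose and 6 fell in WT cells, where ELL2 rose, and the median was -0.11. The 1 that rose was EAF1 (0.22, edgeR adjusted p = 0.000149), with a log2 fold change of -0.03 in GCN2KO cells (edgeR adjusted p = 0.799). In GCN2KO HDW cells 3 rose and 2 fell, with a median of 0.03. EAF2, an ELL-associated factor, fell by 0.43 in WT (edgeR adjusted p = 0.000581) and by 0.48 in GCN2KO cells (edgeR adjusted p = 0.0182). Between the genotypes 4 were higher and 4 lower in unwounded GCN2KO cells, and 8 were higher and 1 lower after HDW, where 35.9% of all genes tested were higher and 35.8% lower. Among HDW cells AFF4, the scaffold of the complex, was higher by 0.80 in GCN2KO than in WT (edgeR adjusted p = 1.94e-09). CDK9, the kinase of P-TEFb, was lower by 0.72 in the same contrast (edgeR adjusted p = 2.21e-09). The interaction passed upward for 6 of the 13, among them AFF4 with 0.37 (edgeR adjusted p = 0.00843). It passed downward for 1, EAF1, with -0.27 (edgeR adjusted p = 0.0415).

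Over the 20 libraries, the genes most like each of the 4 were found by Pearson's r of log2 normalized read counts among 12343 genes, as a description without a test, since the libraries share the 4 groups that drive r. For RRAD they were BCL2L1, an inhibitor of apoptosis (r = 0.995), NSF, an ATPase of vesicle fusion (r = 0.994), and TXNRD1, a thioredoxin reductase (r = 0.992). For AIF1L they were CEP120, a centriole protein (r = 0.989), FSD1L (r = 0.988) and ATF6, a sensor of the unfolded protein response in the endoplasmic reticulum (r = 0.986). For GDPD3 they were DNAJC1, a chaperone cofactor of the endoplasmic reticulum (r = 0.991), GLCE, an epimerase of heparan sulfate (r = 0.990), and GOLPH3, a Golgi protein (r = 0.989). For ELL2 they were KRT16, a keratin of wounded epidermis (r = 0.995), CANX, the chaperone calnexin (r = 0.995), and NT5DC2 (r = 0.994).

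The 3 genes most like ELL2 had the same order of groups. KRT16 had mean normalized read counts of 5003 before and 6603 after HDW in WT cells, and of 24110.5 before and 22950.0 after HDW in GCN2KO cells. CANX had 36269 and 46835 in WT cells, and 121918 and 113476 in GCN2KO cells, before and after HDW. Such profiles were common in these libraries, as 437 genes had an r of at least 0.95 with RRAD, 249 with AIF1L, 393 with GDPD3 and 560.0 with ELL2. Among the 4 genes themselves r ran from 0.906 for RRAD with AIF1L to 0.984 for RRAD with GDPD3. Once the group means were taken out, the r of the remaining deviations ran from -0.559, for RRAD with AIF1L, to 0.181, for RRAD with ELL2.

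The genes around each of the 4 were compared between the genotypes, and the values of these neighbours were not used to choose the 4. Of all genes tested in unwounded cells, 33.4% were higher and 33.1% lower in GCN2KO than in WT at an adjusted p of at most 0.05. Within 1 Mb of RRAD, 50 other genes were tested in unwounded cells, of which 10 were higher and 23 lower in GCN2KO than in WT, and the median was -0.21 on the log2 scale. Around AIF1L 3 of 12 were higher and 7 lower, and none reached a log2 fold change of 1. Around GDPD3 17 of 68 were higher and 29 lower, with adjacent genes that went either way. MAPK3, the kinase ERK1, which lies 567 bases from GDPD3, was higher by 0.52 (edgeR adjusted p = 8.99e-07), and YPEL3, which lies 7894 bases away on the other side, was lower by 0.65 (edgeR adjusted p = 3.34e-06). Around ELL2 5 of 12 were higher and 2 lower. The adjacent gene RHOBTB3, 60714 bases from ELL2, was lower by 1.48 (edgeR adjusted p = 2.51e-09), and GLRX, a glutaredoxin, was higher by 1.98 (edgeR adjusted p = 3.54e-09). The median log2 fold change over the 694 genes tested on chromosome 5, which carries ELL2, was 0.35 in unwounded cells, beside 0.0042 over all genes. After HDW the chromosome 5 median was 0.36, and the part of the chromosome in the level of ELL2 was not tested. The neighbour of RRAD with the highest value was CDH16, the adjacent gene, higher by 3.01 (edgeR adjusted p = 1.13e-09) in unwounded cells.

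**Figure D4:**
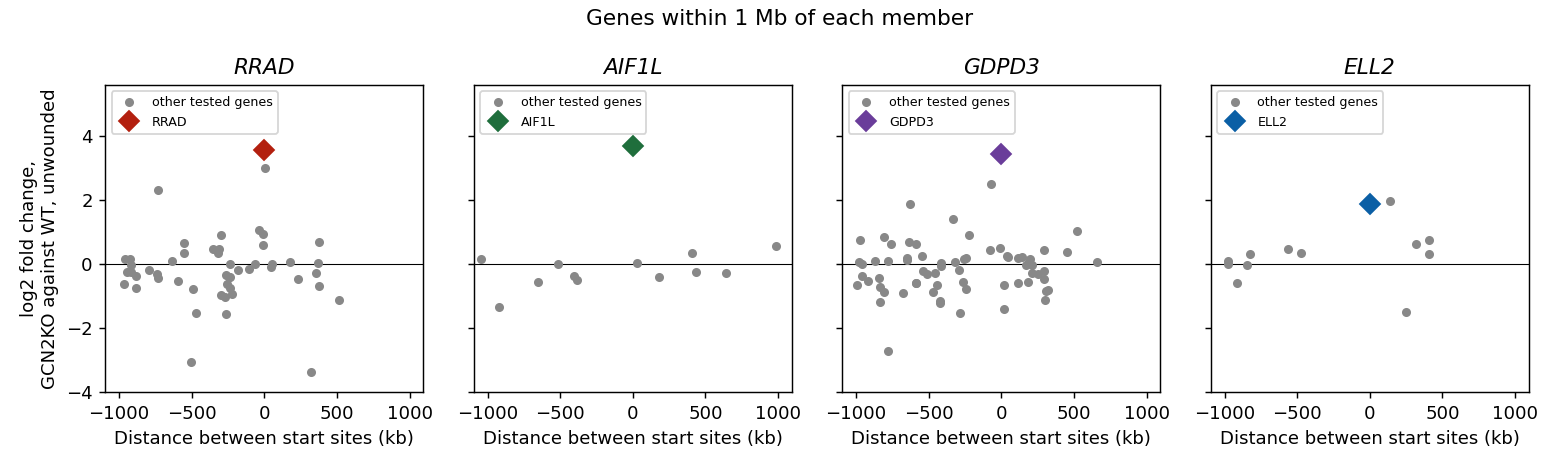
GCN2KO against WT unwounded cells, as log2 fold changes, for the genes tested within 1 Mb of each of the 4 genes (grey), by the distance between start sites in kb, with the gene itself as a diamond at 0. The 4 genes were chosen by this contrast, so that they lie high among their neighbours is not a result. CDH16, next to RRAD, is at 3.01, and GLRX with 1.98 lies above ELL2 with 1.90.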

How the data were processed

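RNA-seq of 20 libraries of NTERT cells in 4 groups of 5 was used. Reads were trimmed with Trimmomatic 0.36, aligned to GRCh38 with STAR 2.5.2b and counted on exons with featureCounts of Subread 1.5.2 by the authors, who deposited raw counts per gene. Strand setting and annotation release were not given in the sources used here. GENCODE release 44 gave symbols, positions and exonic lengths for 56410.0 of 57500 genes. No other column of per-sample values (0) was present.

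Each pair of groups was tested on its 10 libraries, and the interaction on all 20, with edgeR 4.0.16 in R 4.3.3 (quasi-likelihood test, TMM, filterByExpr with minimum count 10 and minimum total 15), fitted on all genes. P-values were Benjamini-Hochberg adjusted over all genes tested, with a threshold of 0.05. SE was taken from the size of the log2 fold change and the root of its F statistic. For normalized read counts, each library was scaled to the mean effective (TMM) library size, with a pseudocount of 0.5 before log2 for correlations. The scripts were tested on simulated data.

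The 4 genes and the lists were chosen with earlier results of these data known. Named genes are the 4, EIF2AK4, at most 4 genes of each of 5 lists by adjusted p, and the 3 genes most like each of the 4 with a mean of at least 50 normalized read counts. The values of KRT16 and CANX, the neighbours CDH16, MAPK3, YPEL3, RHOBTB3 and GLRX, and the single cell type markers KRT5, IVL, KRT1, TGM1, KRT10, MITF, PMEL, MLANA, TYR, PTPRC and CD14 were singled out after their values were seen. EAF1, GEM and SESN2 were singled out in the same way. Alternatives were DESeq2 1.42.0, its size factors, no TMM (library size alone), a minimum mean of 50 counts, the unfiltered table, thinning to the smallest library, all 20 libraries, the replicate block and each library left out in turn. Replicate numbers come from the labels, which do not pair libraries. Tables were made in Python 3.11 with pandas 2.3.3 and numpy 2.4.6, and figures with matplotlib 3.10.9. Promoter sequences of RRAD, AIF1L, GDPD3 and ELL2 were not used here.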

Additional observations from a re-analysis of the deposited data

Results flagged for a closer look

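Replicate 2 of WT unwounded cells had 66.0 normalized read counts of GDPD3, far from the other 4 libraries of its group for their range. The rule was applied to the 4 genes and EIF2AK4 in each of the 4 groups, and this was its only flag. Chance flags about 1 in 20 groups by this rule, so a single flag is no more than chance would give. The wounding response differed between the genotypes by the interaction test for AIF1L, with -1.65 on the log2 scale, for GDPD3, with -0.445, and for ELL2, with -0.38.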

How the results depend on the processing

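AIF1L and ELL2 in WT HDW cells, GDPD3 in GCN2KO HDW cells and the interactions of AIF1L and ELL2 kept their direction and their call under every alternative run, as did the direction of all genotype differences. With RRAD in WT HDW cells, no filter gave -0.26 (edgeR adjusted p = 0.0401), a call gained, thinning gave -0.12 (adjusted p = 0.555), and leaving out 1 library gave -0.38 to -0.21. For AIF1L in GCN2KO HDW cells a call was gained with DESeq2 (-0.23), a mean of at least 50 counts (-0.22, adjusted p = 0.0478) and all 20 libraries (-0.23, adjusted p = 0.0290), against adjusted p-values up to 0.200 elsewhere. Values near 0 changed sign, GDPD3 in WT HDW cells to -0.059 when thinned, and ELL2 in GCN2KO HDW cells to 0.0011 with library size alone, to 0.0024 without GCN2KO unwounded replicate 3 and to 0.027 without GCN2KO HDW replicate 5 (leave-one-out range -0.040 to 0.027). The GDPD3 interaction lost its call with library size alone (-0.38, adjusted p = 0.0608) and when thinned (-0.34, adjusted p = 0.335), and leaving out 1 library gave -0.50 to -0.38. The RRAD interaction was 0.26 to 0.43 with 1 library left out and 0.13 (adjusted p = 0.625) when thinned.

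The same-number correlations of deviations ran from -0.245 to 0.2995 for HDW in WT cells, -0.615 to 0.040 for HDW in GCN2KO cells, -0.057 to 0.155 for the genotypes unwounded and -0.102 to 0.091 for the genotypes after HDW. In no comparison were all 5 above 0.1, so the numbers were not taken to pair the libraries. With the replicate block no call for the 4 genes changed, but of all genes in GCN2KO HDW cells 1239 in place of 1880 were higher and 882 in place of 1706 lower, and 2840 were lower with all 20 libraries. Left-out libraries gave 1183 to 2332 higher and 887 to 2185 lower genes there. The higher count was 1245 without GCN2KO unwounded replicate 5, 1187 without GCN2KO HDW replicate 2 and 1183 without replicate 3, and the lower count was 972, 950.0 and 887 without these, and 1074 without GCN2KO HDW replicate 1. With a mean of at least 50 counts, genes past a log2 fold change of 1 numbered 250 in place of 402 for WT HDW, 796 in place of 1260 higher in GCN2KO unwounded, 563 in place of 1126 higher in GCN2KO HDW against WT HDW, and 207 in place of 355 for the lower interaction. Without a filter 2132 and 1950 genes were higher in GCN2KO unwounded and HDW cells, and DESeq2 called 1737 higher after HDW. When thinned, 1198 in place of 1851 genes had a higher interaction. Except where fewer libraries, counts or genes entered by construction, the cause was not tested. Depth limits AIF1L and GDPD3 in WT unwounded cells most, with as few as 13 and 37 raw counts.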

Other observations

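CDH16, a cadherin whose gene lies 2767 bases from RRAD on the same strand, had 15.9, 7.14, 16.9, 16.7 and 14.5 normalized read counts in WT unwounded cells, from 4 to 18 raw counts. It had 20.2, 13.5, 15.2, 33.9 and 19.9 in WT HDW cells. In GCN2KO unwounded cells it had 125, 104, 108, 107 and 148, and in GCN2KO HDW cells 98.4, 122, 105, 115 and 149. All 10 GCN2KO libraries lay above all 10 WT libraries, and the share of all genes that separate in this way was not counted. GCN2KO against WT gave 3.01 on the log2 scale (SE 0.19) in unwounded cells and 2.54 (SE 0.20) after HDW (edgeR adjusted p = 6.56e-08). CDH16 was singled out after its values were seen.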
